A study of Homo sapiens with 12 samples.

Results

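The lysosome and autophagy genes described here are 42 genes taken from a list of symbols, out of 19775 genes measured on the arrays. Where several probe sets were annotated to a symbol alone, the brightest by its mean across the 12 arrays stood for the gene. All 42 were above the array median on every array and entered the test across 12689 genes. They comprise 5 lysosomal membrane proteins, 8 cathepsins and serine peptidases, 6 glycosidases, 3 sulfatases, 5 proteins of lipid handling, 3 parts of the proton pump, the transcription factors TFEB and TFE3, 3 genes of autophagy initiation, 6 genes of the ATG8 system and the receptor SQSTM1.

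Expression was measured on Affymetrix arrays in ML-2 cells, an established human acute myeloid leukaemia line, with 3 arrays in each of 4 groups. Solvent cells received vehicle throughout. SGI-110 cells received 2 µM SGI-110 (guadecitabine, a hypomethylating agent that releases decitabine), labelled as 33 h. ASTX660 cells received solvent and then 5 µM ASTX660, an antagonist of inhibitor of apoptosis proteins, for 9 h. Combination cells received 2 µM SGI-110 for 24 h, after which 5 µM ASTX660 was added for 9 h. The sources used here do not say whether SGI-110 remained during those last hours. Each group was drawn from 3 independent experiments of 1 cell line, so the p-values measure the spread between these experiments only. The title numbers 2, 9 and 13 were read as experiment numbers, and values on 3 arrays are given in that order.

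Lysosomes are acidic organelles in which hydrolases break down material delivered by endocytosis and by autophagy, and the vacuolar proton pump keeps them acidic. In autophagy a membrane grows around cytoplasm, ATG8 proteins are attached to it, receptors bring cargo, and the closed vesicle fuses with the lysosome. TFEB and TFE3, of the MiT/TFE family, bind E-box sequences in promoters of many lysosomal and autophagy genes, and their activity is set largely by phosphorylation at the lysosome surface and by entry into the nucleus. An mRNA level does not report that activity.

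RefSeq promoters (GRCh38.p14, windows of 300 bases from 250 before to 50 after the start) were matched for 32 of the 42 genes. The E-box core searched was CACGTG, which reads the same on both strands, and the longer forms GTCACGTG and TCACGTGA and the palindromic CLEAR element all contain it, so their counts overlap. CACGTG stood in 9 of the 32 promoters, against 8.77% of 27305 genes. GTCACGTG was present in 7, TCACGTGA in 5 and the CLEAR element in 2, against 2.93%, 1.18% and 0.421% of all genes. The matched promoters also had more CpG dinucleotides, a median of 30.5 against 14 over all genes, and CACGTG itself holds a CpG. The stretches below are those with the core in genes that rose after SGI-110 and, for contrast, in LAMP1 and GAA, which did not pass the test. Capitals mark the matches on either strand, and where matched forms overlap all their bases are capitalised, so a run can be longer than the forms in it.
NEU1, chr6:31862912-31862977, minus strand: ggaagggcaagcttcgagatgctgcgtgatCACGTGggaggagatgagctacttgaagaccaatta
MCOLN1, chr19:7522551-7522623, plus strand: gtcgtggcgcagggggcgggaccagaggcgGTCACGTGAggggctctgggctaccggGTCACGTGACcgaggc
ATP6V0D1, chr16:67481180-67481248, minus strand: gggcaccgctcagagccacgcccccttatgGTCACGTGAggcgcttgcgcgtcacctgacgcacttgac
CTSD, chr11:1763937-1764004, minus strand: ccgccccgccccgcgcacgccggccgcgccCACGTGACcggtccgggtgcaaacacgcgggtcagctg
CD63, chr12:55729154-55729219, minus strand: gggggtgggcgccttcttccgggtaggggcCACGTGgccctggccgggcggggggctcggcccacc
CTSA, chr20:45891261-45891334, plus strand: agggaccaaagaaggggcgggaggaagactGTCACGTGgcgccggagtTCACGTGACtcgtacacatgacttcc
LAMP1, chr13:113297015-113297238, plus strand: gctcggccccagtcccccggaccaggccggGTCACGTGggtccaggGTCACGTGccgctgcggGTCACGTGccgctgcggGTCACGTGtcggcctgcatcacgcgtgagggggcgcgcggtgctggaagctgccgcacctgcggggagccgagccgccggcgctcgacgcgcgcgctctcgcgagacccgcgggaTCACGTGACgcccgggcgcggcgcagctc
GAA, chr17:80101473-80101580, plus strand: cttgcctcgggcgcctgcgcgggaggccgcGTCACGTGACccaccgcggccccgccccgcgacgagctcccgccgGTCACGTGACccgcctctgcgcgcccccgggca
The nearest core lay 8 bases before the start in MCOLN1 and 174 bases before it in CD63, and LAMP1 had 5 cores before the start. The LAMP1 window held another core just after the start, which is not shown. The core was present in 6 of the 15 matched genes that rose with SGI-110 and in 3 of the 17 that did not pass, the third of these being ARSB. A match is a string of letters and says nothing about binding in these cells.

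The first comparison asked what the hypomethylating agent did on its own. After SGI-110, 17 of the 42 genes rose and 0 fell at a limma adjusted p under 0.05 (Benjamini-Hochberg over all 12689 genes). That is 40.5% of the genes, beside 9.5% of all tested genes called higher, 5.9% called lower and 15.4% called in either direction. The 42 genes were chosen with earlier results of these data known, so this share only describes them. The risers spanned the system: both transcription factors, membrane proteins, proteases, a sialidase, lipid handling, the proton pump and autophagy genes. Changes were modest, with a median of 0.19 log2 units against 0.00 over all tested genes, and 37 of 42 differences were above 0. The solvent and SGI-110 arrays did not overlap for 22 of the 42, beside 36.2% of all tested genes. An unadjusted p under 0.05 was found for 23 of the 42, beside 27.8%. Centring each array on the median of the tested genes moved the share of higher among all calls from 61.7% to 43.6%, and 15 of the 42 genes were then higher and 1 lower. Of 6 tested markers of monocyte and macrophage maturation 3 also rose, with a median difference of 0.70 over the 6, and their part in the rise of the lysosomal genes was not tested. Of these 3, CD86 was above the array median only on arrays with SGI-110 and entered the test through them. In these bulk samples a change in the share of a cell type and a change in RNA per cell cannot be told apart.

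**Figure D1:**
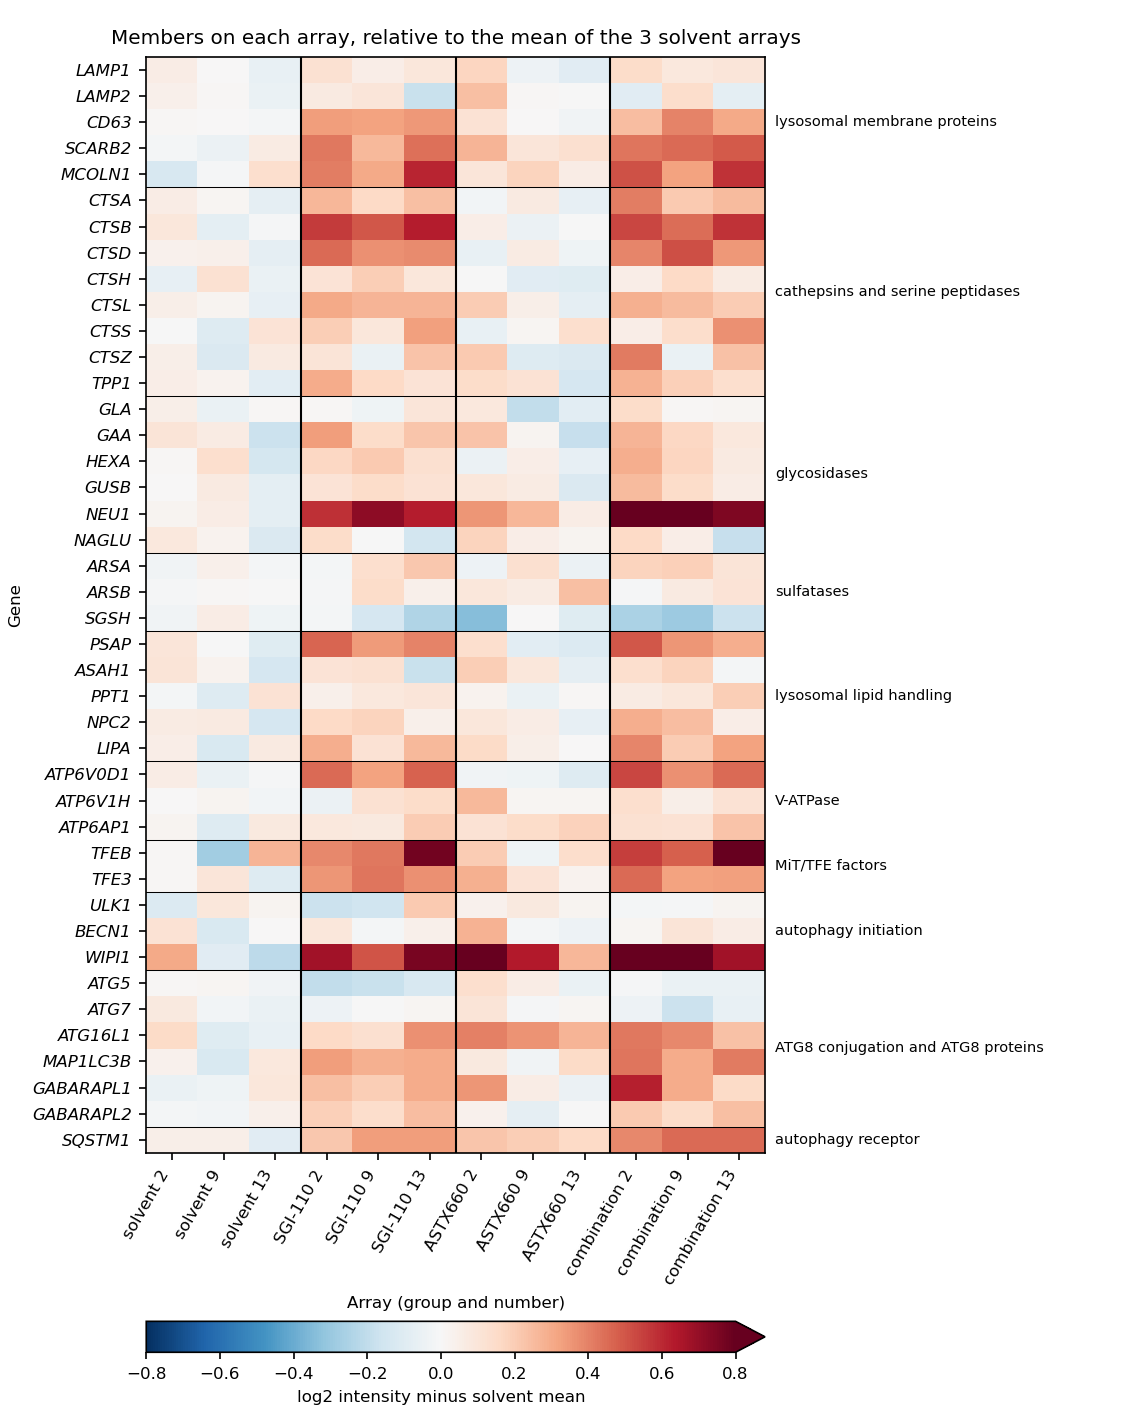
Each cell is the RMA log2 intensity of a gene on 1 array minus the mean of the 3 solvent arrays, with arrays in columns by group and genes in rows by role, and values beyond the end of the colour scale are drawn at its end. The 3 SGI-110 and 3 combination columns are mostly red for NEU1, CTSB, TFEB and ATP6V0D1, while LAMP2, ULK1 and ATG7 stay pale in every group.

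Among the transcription factors, TFEB read 6.82, 6.53 and 7.08 log2 units on the solvent arrays, 7.19, 7.23 and 7.58 with SGI-110, 7.01, 6.77 and 6.95 with ASTX660 and 7.36, 7.28 and 7.73 with the combination. The 3 SGI-110 and 3 combination values all lay above the solvent and ASTX660 values, although the solvent arrays spread widely. TFEB rose by 0.53 with SGI-110 (SE 0.148, 1.44-fold, limma adjusted p = 0.0267). This call was lost without solvent array 2 (0.53, adjusted p = 0.0672), solvent array 9 (0.39, adjusted p = 0.127) or SGI-110 array 13 (0.40, adjusted p = 0.119). The other TFEB probe set differed by 0.22. Its paralogue TFE3 read 9.13, 9.22 and 9.02 on the solvent arrays, 9.48, 9.56 and 9.49 with SGI-110, 9.41, 9.24 and 9.16 with ASTX660 and 9.58, 9.45 and 9.45 with the combination. Its SGI-110 values were tight and all above the other single treatment and solvent. TFE3 rose by 0.38 (SE 0.0721, 1.30-fold, limma adjusted p = 0.00272), and its 3 bright probe sets ranged from 0.25 to 0.38.

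Of the 5 lysosomal membrane proteins, 3 rose and none fell, while LAMP1 and LAMP2, the major glycoproteins of the membrane, did not pass. MCOLN1, the calcium-releasing channel of the lysosome, read 6.23, 6.35 and 6.49 on the solvent arrays, 6.77, 6.66 and 6.97 with SGI-110, 6.45, 6.54 and 6.42 with ASTX660 and 6.87, 6.68 and 6.94 with the combination. The receptor SCARB2, which carries glucocerebrosidase to the lysosome, read 8.58, 8.55 and 8.67 in solvent, 9.02, 8.86 and 9.04 with SGI-110, 8.87, 8.69 and 8.73 with ASTX660 and 9.02, 9.05 and 9.09 with both agents. In both genes every SGI-110 array was above every solvent array. MCOLN1 rose by 0.44 (SE 0.0977, limma adjusted p = 0.00787). SCARB2 rose by 0.37 (SE 0.0677, limma adjusted p = 0.00217), and its 4 probe sets ranged from 0.07 to 0.37. The tetraspanin CD63 had very little spread, with means of 12.06 ± 0.0124 in solvent and 12.39 ± 0.0124 with SGI-110 (SD, n = 3), and rose by 0.33 (SE 0.0423, limma adjusted p = 0.00016).

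LAMP1 read 12.30, 12.24 and 12.18 on the solvent arrays, 12.36, 12.29 and 12.33 with SGI-110, 12.41, 12.20 and 12.15 with ASTX660 and 12.39, 12.32 and 12.34 with the combination. LAMP2 read 11.51, 11.49 and 11.42 in solvent, 11.55, 11.57 and 11.30 with SGI-110, 11.72, 11.48 and 11.47 with ASTX660 and 11.38, 11.62 and 11.39 with both agents. The SGI-110 and solvent arrays overlapped for both genes. The LAMP1 difference was 0.09 (95% interval -0.03 to 0.21, limma adjusted p = 0.325) and the LAMP2 interval ran from -0.18 to 0.17 (adjusted p = 0.983).

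Of the 8 cathepsins and serine peptidases, 4 rose and none fell. CTSB, a cysteine protease, read 10.15, 9.98 and 10.05 on the solvent arrays, 10.62, 10.55 and 10.69 with SGI-110, 10.11, 10.01 and 10.06 with ASTX660 and 10.60, 10.51 and 10.64 with the combination. CTSD, an aspartic protease, read 7.07, 7.08 and 6.96 in solvent, 7.49, 7.40 and 7.41 with SGI-110, 6.98, 7.10 and 7.002 with ASTX660 and 7.43, 7.55 and 7.39 with both agents. For both, the 6 arrays with SGI-110 lay above the 6 without it, and 16.4% of all tested genes were likewise separated in either direction. CTSB rose by 0.56 (SE 0.0568, 1.48-fold, limma adjusted p = 3.12e-05), the smallest adjusted p of the 42 genes, and its 5 probe sets ranged from 0.41 to 0.56. CTSD rose by 0.40 (SE 0.0706, 1.32-fold, limma adjusted p = 0.00181). CTSL, a cysteine protease, rose by 0.28 from a solvent mean of 8.75 ± 0.0589 (SD, n = 3; limma adjusted p = 0.0119). CTSA, the protective protein that holds NEU1 and beta-galactosidase in one complex, rose by 0.22 from 9.38 ± 0.0686 (SD, n = 3; limma adjusted p = 0.0327). The CTSL call was lost without solvent array 13 (0.25, adjusted p = 0.0533). That of CTSA was lost without solvent array 9 (0.23, adjusted p = 0.0766), solvent array 13 (0.18, adjusted p = 0.13), SGI-110 array 2 (0.20, adjusted p = 0.112) or SGI-110 array 13 (0.21, adjusted p = 0.0959). The differences of CTSS, TPP1, CTSH and CTSZ were 0.21, 0.19, 0.13 and 0.09 and did not pass. With the replicate number as a block, which pairs arrays of the same title number, CTSS (limma adjusted p = 0.00923) and TPP1 (0.00962) did.

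Of the 6 glycosidases, NEU1 alone passed. This sialidase removes terminal sialic acids, and it read 8.10, 8.13 and 8.001 on the solvent arrays, 8.66, 8.79 and 8.71 with SGI-110, 8.43, 8.34 and 8.14 with ASTX660 and 9.03, 8.92 and 8.82 with the combination. All SGI-110 arrays were above all solvent arrays, and all combination arrays were above all SGI-110 arrays. NEU1 rose by 0.64 with SGI-110 (SE 0.081, 1.56-fold, limma adjusted p = 0.00016). The differences of GAA, HEXA, GUSB, GLA and NAGLU lay between 0.00 and 0.23 with limma adjusted p from 0.129 to 0.999. HEXA (adjusted p = 0.0188), GAA (0.0378) and GUSB (0.0416) passed with the replicate block. The 3 sulfatases ARSA, ARSB and SGSH differed by 0.11, 0.06 and -0.13, and none passed.

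Of the 5 genes of lipid handling, PSAP and LIPA rose. PSAP, the precursor of the saposins that present sphingolipids to hydrolases, read 10.38, 10.28 and 10.19 on the solvent arrays, 10.75, 10.62 and 10.68 with SGI-110, 10.41, 10.20 and 10.17 with ASTX660 and 10.78, 10.63 and 10.57 with the combination. Its arrays with SGI-110 all lay above those without, and the rise was 0.40 (SE 0.0736, 1.32-fold, limma adjusted p = 0.00229). LIPA, lysosomal acid lipase, rose by 0.22 from 10.47 ± 0.108 (SD, n = 3; limma adjusted p = 0.0425), the call nearest the threshold. It was lost in 11 of 24 alternative settings, among them leaving out solvent array 2 (0.25, adjusted p = 0.063), solvent array 9 (0.16, adjusted p = 0.187), SGI-110 array 2 (0.19, adjusted p = 0.156), SGI-110 array 13 (0.20, adjusted p = 0.127), ASTX660 array 9 (0.22, adjusted p = 0.0529) or combination array 13 (0.22, adjusted p = 0.0525). NPC2, PPT1 and ASAH1 differed by 0.13, 0.07 and 0.02 and did not pass, although NPC2 did with the replicate block (limma adjusted p = 0.0124).

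Within the proton pump, ATP6V0D1, a subunit of the membrane sector, read 9.65, 9.53 and 9.58 on the solvent arrays, 10.04, 9.91 and 10.06 with SGI-110, 9.56, 9.55 and 9.48 with ASTX660 and 10.12, 9.95 and 10.04 with the combination. The 6 arrays with SGI-110 all exceeded the 6 without. ATP6V0D1 rose by 0.42 (SE 0.0596, 1.33-fold, limma adjusted p = 0.000444). The cytosolic subunit ATP6V1H and the accessory protein ATP6AP1 differed by 0.08 and 0.12 and did not pass.

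**Figure D2:**
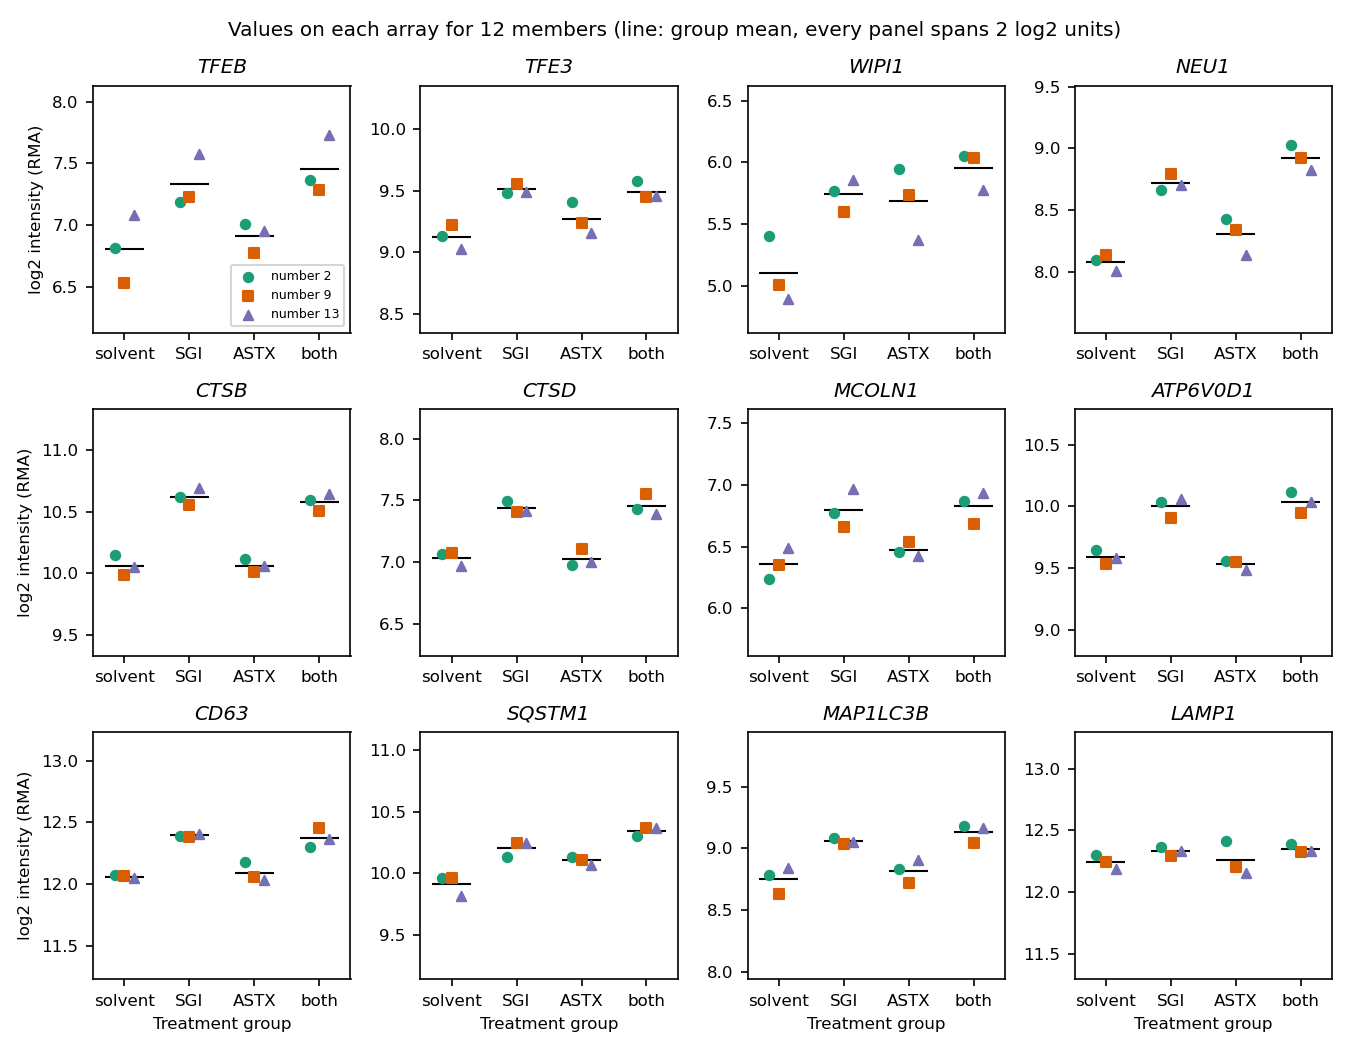
Each panel gives the RMA log2 intensity of 1 gene on the 12 arrays, with symbols for the title numbers 2, 9 and 13 and a line at each group mean, and every panel spans 2 log2 units. For CTSB, CTSD, NEU1 and ATP6V0D1 the SGI-110 and combination points stand above the solvent and ASTX660 points, whereas the LAMP1 groups overlap.

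In autophagy initiation, WIPI1 alone rose. WIPI1 binds phosphatidylinositol 3-phosphate on the growing membrane, and it read 5.40, 5.01 and 4.89 on the solvent arrays, 5.77, 5.60 and 5.86 with SGI-110, 5.95, 5.74 and 5.37 with ASTX660 and 6.05, 6.04 and 5.77 with the combination. SGI-110 arrays were all above solvent arrays, and so were 2 of the 3 ASTX660 arrays. WIPI1 rose by 0.64 with SGI-110 (SE 0.153, 1.56-fold, limma adjusted p = 0.0116), but not without solvent array 13 (0.54, adjusted p = 0.0509). The kinase gene ULK1 and BECN1, a subunit of the phosphatidylinositol 3-kinase complex, differed by -0.04 (95% interval -0.25 to 0.17) and 0.04 (-0.14 to 0.21).

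Within the ATG8 system, MAP1LC3B (LC3B) read 8.79, 8.63 and 8.84 on the solvent arrays, 9.09, 9.04 and 9.05 with SGI-110, 8.83, 8.72 and 8.90 with ASTX660 and 9.18, 9.05 and 9.16 with the combination. Its 6 arrays with SGI-110 all exceeded the 6 without, and it rose by 0.31 (SE 0.069, limma adjusted p = 0.00869). The related ATG8 protein GABARAPL2 rose by 0.19 from 10.82 ± 0.0342 (SD, n = 3; limma adjusted p = 0.0102). GABARAPL1 differed by 0.24 and did not pass (adjusted p = 0.219). None of the 3 genes of the conjugation machinery passed: ATG5 differed by -0.17 (adjusted p = 0.0513), ATG7 by -0.01 and ATG16L1 by 0.22 (adjusted p = 0.141). ATG5 arrays lay lower with SGI-110 (9.53 ± 0.0352) than in solvent (9.69 ± 0.0246; SD, n = 3) with no overlap, and it passed as lower without ASTX660 array 2 (limma adjusted p = 0.0229), without ASTX660 array 13 (0.0343) or with the replicate block (0.0215). Of the 3 ATG5 probe sets 1 differed upwards, by 0.04.

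SQSTM1 (p62) carries ubiquitin-tagged cargo to ATG8 proteins and is itself degraded by autophagy. It read 9.96, 9.96 and 9.82 on the solvent arrays, 10.13, 10.25 and 10.25 with SGI-110, 10.14, 10.11 and 10.07 with ASTX660 and 10.30, 10.37 and 10.37 with the combination. The solvent arrays were lowest and the combination arrays highest, with no overlap between solvent and any treatment. SQSTM1 rose by 0.30 with SGI-110 (SE 0.0536, limma adjusted p = 0.00215), and its 5 probe sets ranged from 0.12 to 0.37. Read from probe sets without a cross-hybridisation suffix it did not pass (0.16, adjusted p = 0.134).

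A second estimate of the SGI-110 effect came from the combination against ASTX660, whose differences share no array with those of SGI-110 against solvent. The calls were still not independent. The fit covered all groups and gave each gene the same estimate of the spread in both comparisons. The arrays of both also carried the same title numbers. In it 15 of the 42 genes rose and 0 fell, beside 8.37% of all tested genes called higher, 7.69% lower and 16.1% in either direction. The arrays did not overlap in 21 genes, beside 29.4% of all tested genes, and 20 had an unadjusted p under 0.05, beside 29.6%. All 15 were among the 17 called before, which is 88.2% of the first list and 100% of the second. Over all tested genes 1457 calls were shared, or 74.5% and 71.5% of each list. The 2 genes called only in cells without ASTX660 were CTSL (0.28 and then 0.19, limma adjusted p = 0.0728) and WIPI1 (0.64 and then 0.27, adjusted p = 0.266). NEU1 rose by 0.62 (adjusted p = 0.00024), TFEB by 0.55 (0.0219), CTSB by 0.52 (5.91e-05) and ATP6V0D1 by 0.50 (0.00012). The other TFEB probe set differed by 0.17 here. The same sign was found in 39 of 42 genes, beside 9908 of all 12689. CTSL passed once ASTX660 array 2 was left out (0.26, adjusted p = 0.0106). TFE3 (0.23, adjusted p = 0.0471) was the least stable of these calls, lost in 14 of 24 alternative settings and without any 1 of solvent array 2, the 3 SGI-110 arrays, ASTX660 arrays 9 and 13 and the 3 combination arrays (adjusted p = 0.0563 to 0.169). MCOLN1 was lost without array 2 or 13 of either group (adjusted p = 0.0507 to 0.0963), LIPA without ASTX660 array 9 or 13 or combination array 2 or 13 (0.0867 to 0.125) and TFEB without ASTX660 array 9 (0.0853) or combination array 13 (0.0976).

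**Figure D3:**
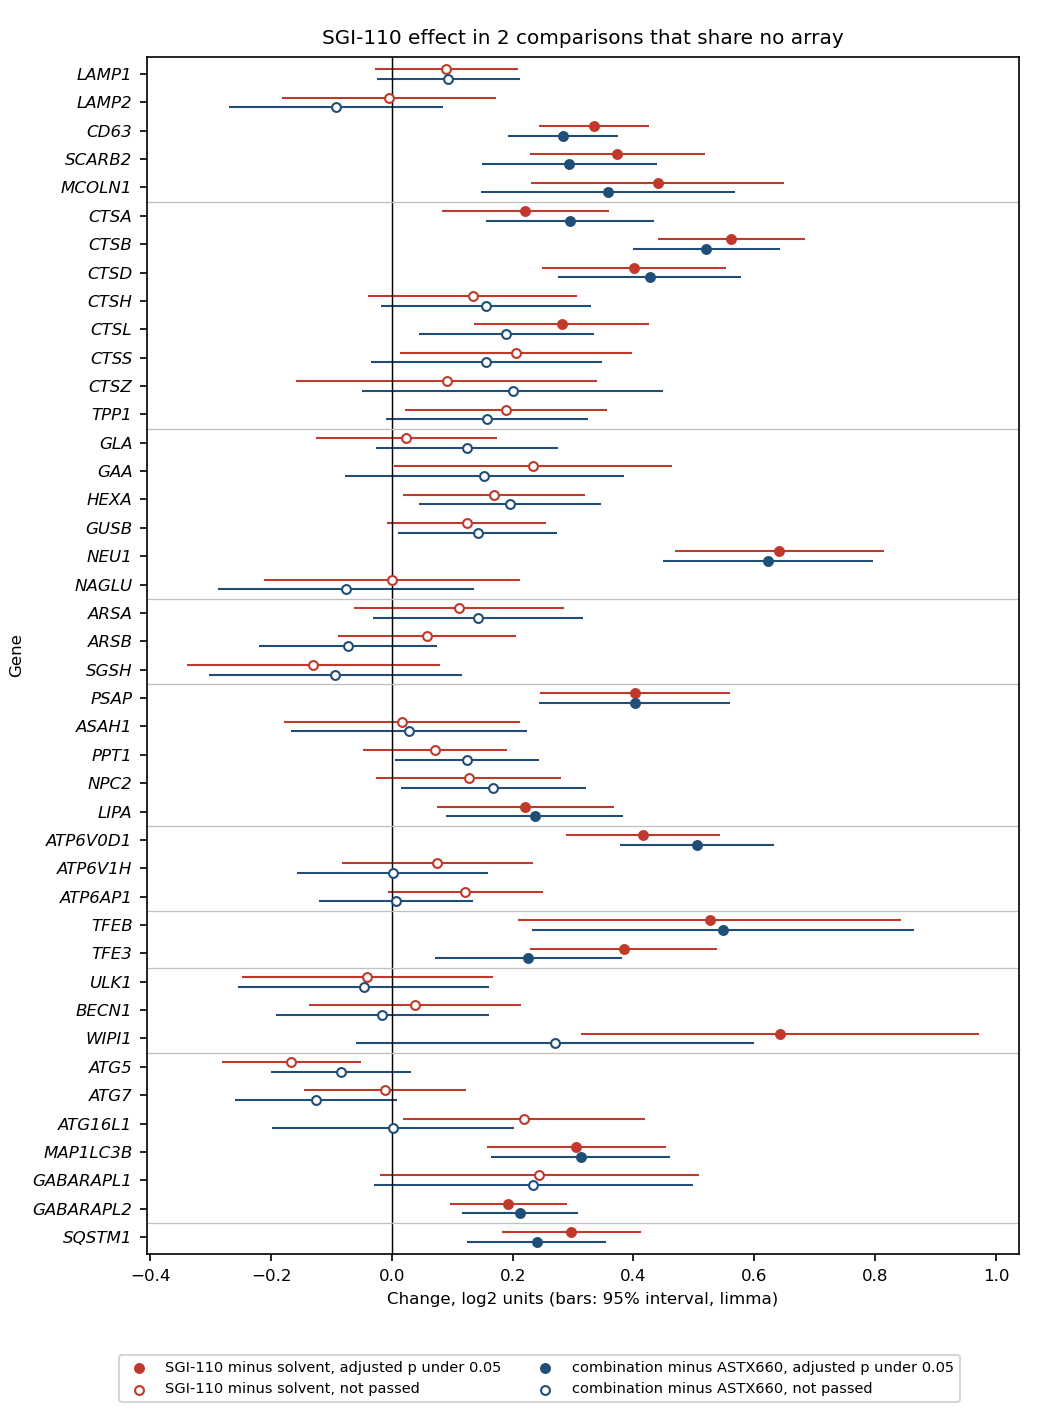
Points give the log2 change of each gene in SGI-110 minus solvent (red) and combination minus ASTX660 (blue), bars are 95% intervals from limma, and filled points passed an adjusted p under 0.05. The paired points lie close for CTSB (0.56 and 0.52) and NEU1 (0.64 and 0.62) and farthest apart for WIPI1 (0.64 and 0.27).

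Averaging both estimates, 6 arrays with SGI-110 against 6 without, called 22 of the 42 genes higher and 1 lower, beside 15.8% and 14.1% of all tested genes, or 29.9% in either direction. Beyond the 17 risers these were HEXA, TPP1, GUSB, NPC2 and CTSS as higher and ATG5 as lower (-0.13, limma adjusted p = 0.0226). Leaving out single arrays gave between 18 and 24 higher, and the ATG5 call was lost without solvent array 2, solvent array 9 or SGI-110 array 2. The calls of CTSS, GUSB, NPC2 and TPP1 each ended when any 1 of several single arrays was left out.

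The next comparison asked what ASTX660 did to the same genes. At an adjusted p under 0.05 limma called 0 of the 42, beside 0 of all 12689 genes, and 6 of the 42 had an unadjusted p under 0.05, beside 7.05% of all tested genes. The median difference was 0.04 against 0.03 over all tested genes, and without ASTX660 array 2, which stood apart from the other arrays, it was 0.00. The largest differences were in WIPI1 (0.58, SE 0.153, limma adjusted p = 0.632), ATG16L1 (0.34, adjusted p = 0.632), NEU1 (0.22, adjusted p = 0.682) and SQSTM1 (0.19, adjusted p = 0.632). The arrays did not overlap in NEU1, SQSTM1, ATG16L1, SCARB2, ATP6AP1 and ARSB, 6 of the 42 beside 12.3% of all tested genes. For 41 of the 42 the 95% interval lay within a 1.5-fold change either way, as for 97.8% of all tested genes, and WIPI1 (0.26 to 0.91) was the exception. ASTX660 and SGI-110 are each set against the same solvent arrays.

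Adding ASTX660 after SGI-110 also gave 0 limma calls among the 42 and 0 among all tested genes, with 3 of the 42 and 2.92% of all tested genes at an unadjusted p under 0.05. The 3 were NEU1, higher by 0.20 (95% interval 0.03 to 0.38), SQSTM1, higher by 0.13 (0.02 to 0.25), and ATG5, higher by 0.13 (0.01 to 0.24), each with a limma adjusted p of 1. The combination and SGI-110 arrays did not overlap in these 3 of the 42 genes and in no other, a share no higher than the 8.69% of all tested genes. All 42 intervals lay within 1.5-fold. Averaged over cells with and without SGI-110, ASTX660 gave 0 calls and 7 genes at an unadjusted p under 0.05 (8.38% of all tested genes), led by SQSTM1 at 0.16 (limma adjusted p = 0.324). With the replicate block limma called 1 of all 12689 genes for ASTX660 against solvent, 10 for the combination against SGI-110 and 22 for the average, and none of these was among the 42.

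Against solvent, 18 of the 42 genes rose with the combination and 0 fell, beside 12.1% of all tested genes called higher, 5.85% lower and 17.9% in either direction. The median change was 0.20 against 0.00 over all tested genes, and the arrays did not overlap in 25 genes, beside 38.4% of all tested genes. An unadjusted p under 0.05 was found for 26, beside 32% of all tested genes. Centring on the tested genes moved the share of higher among all calls from 67.4% to 35.2%, and quantile normalization moved it to 54.1%, with 17 and 18 of the 42 higher. This comparison shares the solvent arrays with that of SGI-110 alone. The 18 were the 17 risers of SGI-110 alone and ATG16L1, which links ATG5 to the growing membrane. NEU1 rose by 0.85 (SE 0.081, 1.80-fold, limma adjusted p = 1.73e-05) and WIPI1 by 0.85 (SE 0.153, 1.81-fold, adjusted p = 0.00186), followed by TFEB at 0.65 (adjusted p = 0.00777), CTSB at 0.52 (4.72e-05) and MCOLN1 at 0.47 (0.00469). The other TFEB probe set differed by only 0.12, so the place of TFEB rests on 1 of its 2 probe sets. SQSTM1 rose by 0.43 (limma adjusted p = 0.000133). ATG16L1 means were 5.92 ± 0.135 in solvent, 6.14 ± 0.13 with SGI-110, 6.27 ± 0.0667 with ASTX660 and 6.27 ± 0.1 with the combination (SD, n = 3). It rose by 0.35 (limma adjusted p = 0.0203), but did not pass without solvent array 9 (adjusted p = 0.0893), solvent array 13 (0.0689), combination array 2 (0.0753) or combination array 9 (0.0563). The CTSL call (0.25, adjusted p = 0.0209) was lost without the same 4 arrays (adjusted p = 0.0505 to 0.0803). With the replicate block 2359 of all 12689 genes were called higher, against 1533 without it, and 28 of the 42 rose, adding LAMP1, CTSS, CTSZ, TPP1, HEXA, GUSB, PPT1, NPC2, ATP6AP1 and GABARAPL1.

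A test of whether the effect of one agent depended on the other, the interaction, gave 0 limma calls among the 42 and 0 over all tested genes, with 0 of the 42 and 1.61% of all tested genes at an unadjusted p under 0.05. The interaction of WIPI1 was the largest, at -0.37 (95% interval -0.84 to 0.09, unadjusted p = 0.107), and that interval was the only one of 42 to reach beyond 1.5-fold. For NEU1 it was -0.02 (-0.27 to 0.23) and for SQSTM1 -0.06 (-0.22 to 0.11).

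**Figure D4:**
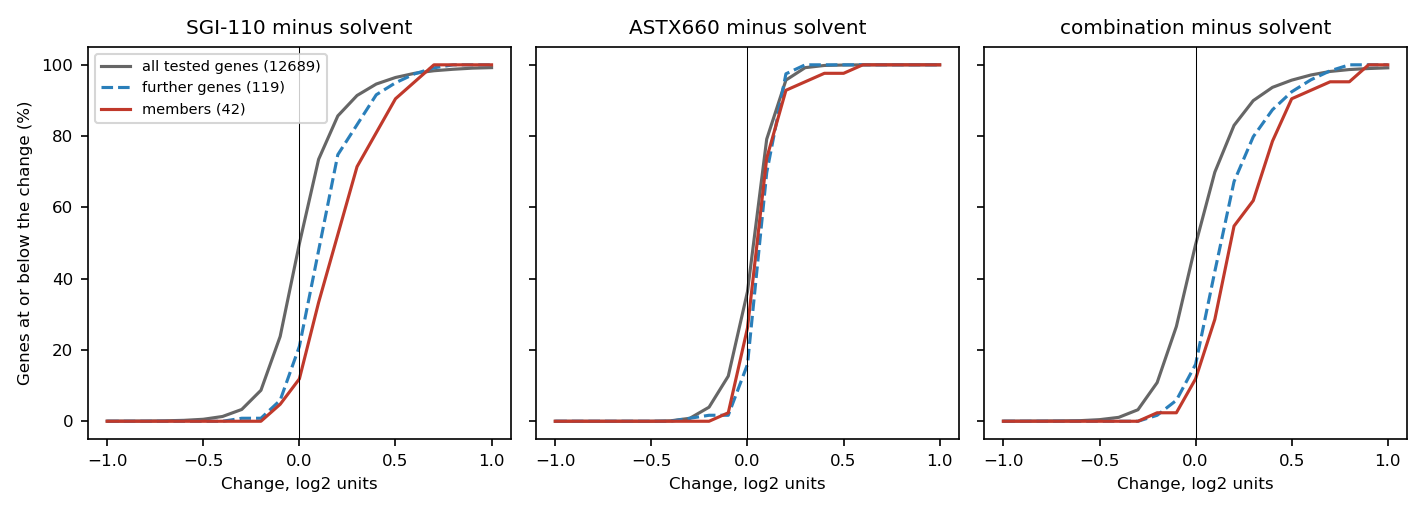
Each line gives the percentage of genes at or below a log2 change, for the 42 genes (red), 119 further lysosome and autophagy genes (blue, dashed) and all 12689 tested genes (grey), in 3 comparisons with the same solvent arrays. At a change of 0 the red line stands at 11.9% for SGI-110 and for the combination, against 49.8% and 49.6% for all tested genes, and at 26.2% against 36.4% for ASTX660.

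A wider list of 136 further symbols of the same system, of which 119 were tested, gave 24 genes that rose with SGI-110 and 1 that fell, 20.2% higher beside the 9.5% of all tested genes. Its median was 0.11. Among further hydrolases 7 of 20 rose, led by FUCA1, an alpha-fucosidase, at 0.58 (limma adjusted p = 0.000453), the phospholipase PLA2G15 at 0.50 (0.0013) and SCPEP1 at 0.29 (0.00223). Of 16 further membrane and transport genes 5 rose, led by CLN3 at 0.35 (adjusted p = 0.00536), LITAF at 0.73 (0.00587) and LAPTM4B at 0.66 (0.00819). Of 13 further subunits of the proton pump 3 rose, ATP6V1D by 0.31 (adjusted p = 0.00215), ATP6V1E1 by 0.15 (0.022) and ATP6V1A by 0.18 (0.0374).

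In the remaining lists the counts are again to be read beside the 9.5% of all tested genes called higher, and those of nutrient sensing, core autophagy and enzyme delivery lay near or below it. Of 18 genes of nutrient sensing at the lysosome, MITF, another MiT/TFE factor, rose by 0.28 (limma adjusted p = 0.0345). RPTOR, which recruits substrates to mTOR complex 1, fell by 0.37 (adjusted p = 0.0477). Of 26 further core autophagy genes 3 rose, namely the ATG8 protein GABARAP at 0.51 (adjusted p = 0.000125), ATG13 of the initiating kinase complex at 0.28 (0.00977) and the WIPI-family gene WDR45 at 0.44 (0.00977). Of 9 further autophagy receptors 4 rose, led by the mitophagy receptor BNIP3L at 0.47 (adjusted p = 0.00221), NBR1 at 0.34 (0.00332) and WDFY3 at 0.33 (0.0264). Delivery of lysosomal enzymes held 1 riser among 17 genes, VPS16, at 0.22 (adjusted p = 0.0415). With the combination 32 of the 119 rose and 0 fell, beside 12.1% of all tested genes called higher and 5.85% lower, and with ASTX660 limma called 0.

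Markers of the myeloid lineage and of other cell types were read on the same arrays. Mature monocytes and macrophages are known for many lysosomes. Of 7 tested myeloid markers, MPO, CTSG, ELANE, AZU1 and LYZ were bright on all arrays, and LYZ (0.24) and CEBPA (0.17) rose with SGI-110. Of 11 monocyte and macrophage maturation markers, 6 were tested and 3 rose with SGI-110, with ITGAX at 0.50, CSF1R at 0.52 and CD86 at 1.23. CD86 was above the array median only on the 6 arrays with SGI-110 and entered the test through them. Its call is therefore no separate support, and its change starts from low solvent values (3.80, 4.43 and 4.01). Their mean level over all 11 ran from 4.58 to 4.82 on the solvent arrays and 5.00 to 5.33 with SGI-110. It ran from 4.61 to 4.83 with ASTX660 and 4.95 to 5.44 with the combination. This mean was higher on arrays with SGI-110, as was that of the lysosomal and autophagy genes, and a link between them was not tested. Within groups the arrays did not keep 1 order in both means. Each order rests on 3 arrays, and gaps could be small (8.77 and 8.76 on solvent arrays 9 and 13). Array 13 had the highest maturation mean in solvent (4.82) and ASTX660 (4.83). Its mean of the lysosomal and autophagy genes was the lowest there (8.76 and 8.79). With SGI-110 array 13 was highest in both (5.33 and 9.01), and with the combination in the maturation mean only. CD14, FCGR1A, CD163, MRC1 and FCN1 stayed below the array median on every array, and the maturation mean includes them. Limma called none of 3 lymphoid or 3 erythroid markers (unadjusted p under 0.05 in EPOR alone) and 1 of 4 epithelial and fibroblast markers, KRT18, which rose by 0.83. CD2, MS4A1, HBD, KLF1, EPCAM and CDH1 were below the array median on every array.

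Array medians lay between 4.69 and 4.77 log2 units. Arrays of a group correlated at 0.995 to 0.998 and arrays of different groups at 0.987 to 0.998, so some arrays of different groups were as alike as replicates. The 3′ minus 5′ difference of the ACTB and GAPDH control probe sets stayed between -0.0961 and 0.0767. For ACTB the groups overlapped. For GAPDH the SGI-110 arrays (-0.0411 to -0.0273) lay slightly below the solvent arrays (-0.0259 to -0.0158), and the other groups overlapped. The mean of the 42 genes was 8.81, 8.77 and 8.76 on the solvent arrays, 8.99, 8.96 and 9.01 with SGI-110, 8.92, 8.84 and 8.79 with ASTX660 and 9.06, 9.01 and 9.01 with the combination, with no overlap between arrays with and without SGI-110. The mean of all tested genes was also higher with SGI-110 (7.77, 7.78 and 7.79) than in solvent (7.75, 7.74 and 7.76), by less. It was 7.80, 7.76 and 7.76 with ASTX660 and 7.79 on each combination array. ASTX660 array 2 had the highest mean of the 42 genes in its group, and it stood apart from the other arrays on the third principal component of all tested genes.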

How the data were processed

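Total RNA of ML-2 cells (100 ng, per the labels' protocols) was made into biotin-labelled cRNA and hybridised to 12 Affymetrix arrays. The authors deposited log2 intensities from RMA with the affy package, per the submitters' processing notes, which give no version. RMA corrects background, quantile-normalizes and summarises probes, so folds are compressed at low intensity and a shift of most genes in one direction is removed. The sources used here do not say whether all arrays were normalized together.

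Of 54675 probe sets, 41091 carried 1 usable symbol, and 1801 annotated to several genes were left out. Each gene was read from its brightest probe set, and 12689 genes with that probe set above the array median in at least 3 arrays were tested. Groups were compared in limma (3.58.1, under R 4.3.3), fitting a mean for each group with an intensity trend in the variance and Benjamini-Hochberg adjustment over all 12689 genes, called under 0.05. The procedure was tested on simulated data with independent errors on each array. These lacked the joint deviations of arrays of the same title number described below, so that test does not cover them. The number of arrays limits the precision.

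The 42 genes and the further lists were chosen with earlier results of these data known. Values on every array are given for TFEB, TFE3, LAMP1, LAMP2, SQSTM1, MAP1LC3B and the 10 largest changes called with SGI-110. From each further list up to 3 called genes with the smallest adjusted p are named.

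Arrays of the same title number deviated together from their group means (correlations over tested genes 0.367 to 0.572 for SGI-110 against solvent, 0.321 to 0.55 for ASTX660 against solvent and 0.15 to 0.541 for the combination against solvent). Alternatives covered the probe set choice, the filter, scaling, the replicate block, the variance model, the arrays fitted and leaving out each array.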

Additional observations from a re-analysis of the deposited data

How the results depend on the processing

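Over 24 alternative settings none of the 7914 values of single genes reversed a call, 7719 kept their side of the threshold, 109 lost it and 86 gained it, and 475 values that passed in neither setting changed sign. The 17 genes higher with SGI-110 became 14 to 17 when single arrays were left out, the 18 of the combination 16 to 20, and the 15 of the combination against ASTX660 12 to 17. With the replicate block these counts were 23, 28 and 23, while the genes called higher among all 12689 went from 1206, 1533 and 1062 to 1887, 2359 and 1722. In the combination against ASTX660 the pairing is weaker (correlations of 0.057, 0.158 and 0.539). The genes that gained with the block and SGI-110 were HEXA, GUSB, GAA, TPP1, NPC2 and CTSS. The count lower with SGI-110 was 1 in place of 0, ATG5 each time, with a filter on all arrays, centring on tested genes, quantile normalization, the replicate block, array weights, only the groups compared, and 0 to 1 when single arrays were left out. In the averaged SGI-110 effect it was 0 to 1 when single arrays were left out. Centring each array on the median of the tested genes, chosen after seeing the data, gave 1 gene lower with the combination, ATG7 (limma adjusted p = 0.0467), and turned the median ASTX660 difference of the 42 from 0.04 to -0.03. ASTX660 and the interaction gave 0 calls among the 42 in every setting run. The choice of probe set ended the SQSTM1 calls (probe sets without suffix) and, in the mean over probe sets, those of LIPA, of TFE3 with the combination against solvent (limma adjusted p = 0.0883) or ASTX660 (0.279), and of SQSTM1 against ASTX660 (0.0588). In the averaged SGI-110 effect either choice ended the calls of CTSS and HEXA, and one of them those of GUSB, TPP1 and LIPA. The fit on only the groups compared does not exist for the interaction and the averaged effects. Causes of these shifts were not tested.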
